A study of Mus musculus with 36 samples.

Results

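Hes1, Hes5, the Hey genes and Nrarp are usual transcriptional readouts of Notch signaling. Their mRNA, and that of the related Hes6, was followed here in mouse nephron progenitor cells (NPCs) held at different levels of canonical Wnt activity. The 7 genes Hes1, Hes5, Hes6, Hey1, Hey2, Heyl and Nrarp were taken by symbol from 3 tables of RNA-seq counts that together hold 30125 genes. Of these, 7 were listed in the wild-type table and in the β-catenin table, and 6 in the Tcf/Lef table, in which Nrarp was not analysed here. All cells were primary NPCs from E16.5 mouse kidneys, grown in the medium NPEM with CHIR99021 (CHIR), an inhibitor of the kinase GSK3 that stabilizes β-catenin. Wild-type NPCs had no CHIR (0 µM), low CHIR (1.25 µM) or high CHIR (5 µM), with 3 libraries each. NPCs of the conditional genotype β-catenin c/c were transfected with Cre mRNA (Cre-positive) or without it (Cre-negative), with 2 libraries each in low and in high CHIR. NPCs of Cas9-eGFP mice received sgRNAs to Ctnnb1, which encodes β-catenin, or to GFP, again with 2 libraries each in low and high CHIR. In the third table, Cas9-eGFP NPCs received sgRNAs to Tcf7l1, Tcf7l2, Tcf7 and Lef1 together (quadruple knockout, QKO) or to GFP (QKO control), with 3 libraries per group apart from 2 for QKO in low CHIR. All transfected cells, controls included, also received mCherry mRNA and were sorted for it. Transfected cells were first held in low CHIR to let the knockout take effect, for longer in the Tcf/Lef than in the β-catenin experiment, before the dose was set. The wild-type cells were not transfected and had no such period. Knockouts were made in a population of cells and not in clones, so cells that escaped editing may remain in each knockout library.

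In Notch signaling, a Delta or Jagged ligand on one cell binds a Notch receptor on its neighbor. The receptor is cut, and its intracellular domain enters the nucleus, where it joins the DNA-binding protein Rbpj and a Mastermind coactivator to switch on target genes. Hes and Hey proteins are basic helix-loop-helix repressors with an Orange domain that recruit Groucho (Tle) corepressors. Hes6 stands apart in the family, since it is known to oppose Hes1, and Nrarp is a small ankyrin-repeat protein that is induced by Notch and limits it. In the developing nephron, Notch is known for its part in the exit of cells from the progenitor state and in early tubule patterning.

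RefSeq promoter windows of 300 bases (250 before to 50 after a start site, GRCm38.p6) were on hand for 4 of the 7 genes, namely Hes5, Hes6, Hey2 and Nrarp. The core hexamer that Rbpj binds, TGGGAA on either strand, was found in the windows of Hes5 and Hey2, and in 25.6% of all 32851 promoter windows. These 2 windows are shown because they hold the letters that Notch target promoters are searched for, with the hexamers in capitals.
Hes5, chr4:154960673-154960972, plus strand: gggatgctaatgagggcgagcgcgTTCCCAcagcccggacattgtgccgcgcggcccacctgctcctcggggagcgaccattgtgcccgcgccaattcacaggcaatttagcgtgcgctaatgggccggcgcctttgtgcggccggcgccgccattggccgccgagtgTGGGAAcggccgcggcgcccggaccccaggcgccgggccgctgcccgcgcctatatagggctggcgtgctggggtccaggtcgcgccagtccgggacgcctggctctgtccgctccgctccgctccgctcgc
Hey2, chr10:30842734-30843033, minus strand: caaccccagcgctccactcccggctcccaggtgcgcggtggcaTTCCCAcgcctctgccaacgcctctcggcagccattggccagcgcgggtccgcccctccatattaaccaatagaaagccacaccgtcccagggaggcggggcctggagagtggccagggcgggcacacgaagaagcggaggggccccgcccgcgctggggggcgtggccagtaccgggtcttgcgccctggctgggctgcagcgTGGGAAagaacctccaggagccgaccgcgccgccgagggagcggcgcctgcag
In Hes5 the hexamers begin 226 and 82 bases before the start site, and in Hey2 207 and 3 bases before it. The Tcf/Lef heptamer CTTTGAT on either strand was in none of the windows of these 4 genes, against 3.73% of all windows. A match is a string of letters and not a shown binding site.

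The values are normalized counts, that is, the reads of a gene divided by 1 size factor per library, and the 3 tables were normalized separately. Libraries held 13651129 to 76071568 reads on genes in the wild-type table, 14537850 to 27838106 in the β-catenin table and 13089780 to 20152719 in the Tcf/Lef table. A gene was tested where its mean over a table was at least 10 normalized counts, which 5 members passed in each table (Hes1, Hes6, Hey1, Hey2 and Heyl). The test was limma on log2(normalized count + 1) with Benjamini-Hochberg adjustment over all genes tested. A gene is called below where the adjusted p was under 0.05 and the log2 fold change at least 0.5 in size. The share of all genes whose groups do not overlap was not counted, so statements on overlap only describe the libraries. In high CHIR its own sgRNA lowered Ctnnb1, which fell by 0.89 in log2 units (adjusted p = 0.0429). At the low dose the groups did not overlap, but the change of -1.16 was not called (adjusted p = 0.252). Cre left Ctnnb1 uncalled at both doses (-0.33, adjusted p = 0.657, and 0.06, adjusted p = 0.917). A count over the whole gene also includes exons outside the deleted part, so it does not check the Cre samples. Of the QKO targets in high CHIR, Tcf7 fell by 1.64 (adjusted p = 0.0175), and Lef1 had a log2 fold change of -2.11 (adjusted p = 0.131). Tcf7l1 (0.15, adjusted p = 0.778) and Tcf7l2 (-0.35, adjusted p = 0.513) were not called, and since edited transcripts can persist, these counts are a partial check. All 8 nephron progenitor markers looked at were tested in each table. Their summed level in wild-type libraries was 26800 to 31360 normalized counts without CHIR, 15450 to 20310 in low CHIR and 4146 to 9031 in high CHIR, and 6 of the 8 fell from low to high CHIR (Osr1, Six2, Eya1, Meox1, Cited1 and Wt1, by 9.74 to 4.11 on the log2 scale). Wild-type high CHIR replicate 3 stood apart from replicates 1 and 2, and QKO control high CHIR replicate 1 alone in its group carried Lyz2, a macrophage gene, at 2474 normalized counts against 0 in both others. Member results whose call changes without either library are given both ways. Pathway, marker and targeted genes are given with all libraries only.

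Hes1, the most widely used Notch target, was called lower in high than in low CHIR in 3 of 4 settings without a knockout. It was not called in the other, with the GFP sgRNA. Within high CHIR it was called higher after Cre removal of β-catenin and in QKO NPCs than in their controls. Hes1 (ENSMUSG00000022528) lies at chr16:30064384-30067796 on the plus strand in GENCODE vM21. In wild-type NPCs its normalized counts were 1021, 1893 and 1151 at 0 µM CHIR, 790, 848 and 977 at the low dose, and 216, 182 and 170 in high CHIR. Each high CHIR library lay below every other, and each library without CHIR lay above those in low CHIR. The mean was 1355 ± 470 (SD, n = 3) without CHIR, 872 ± 96.0 (n = 3) in low CHIR and 189 ± 24.0 (n = 3) in high CHIR. From low to high CHIR Hes1 fell by 2.20 on the log2 scale (standard error 0.23, adjusted p = 0.000243), and this was the 1 member called in a comparison where 10.4% of genes were called. The difference between no and low CHIR was 0.59 (adjusted p = 0.162), so that step was not past the threshold. No member was called there by limma without a replicate block, against 2 at an unadjusted p under 0.05. By edgeR 0 were called and by DESeq2 1, with 4.97% of genes called by limma. Against no CHIR, high CHIR lowered Hes1 by 2.79 (adjusted p = 3.31e-05), 1 of 2 members called where 23.4% of genes were. Nephron progenitor markers fell over the same doses, and their part in the fall of Hes1 was not tested.

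In the transfected controls Hes1 took different steps. Cre-negative NPCs had 1509 and 1009 normalized counts of Hes1 in low CHIR and 253 and 294 in high CHIR. This drop of 2.17 on the log2 scale (standard error 0.31, adjusted p = 0.000496) was of about the size seen in wild-type cells. QKO controls had 914, 986 and 508 in low CHIR and 194, 257 and 230 in high CHIR, and Hes1 fell by 1.77 (adjusted p = 0.000302). Cas9 GFP sgRNA NPCs had 992 and 1218 in low CHIR and 713 and 512 in high CHIR. Their groups did not overlap either, but the log2 fold change of -0.86 (95% interval -1.52 to -0.20) had an adjusted p of 0.118. Whether the GFP sgRNA response differs from the Cre-negative response was not tested.

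After β-catenin removal or Tcf/Lef knockout, no response of Hes1 to CHIR was called. Cre-positive NPCs had 1187 and 1085 in low CHIR and 1086 and 781 in high CHIR, a log2 fold change of -0.30 (95% interval -0.96 to 0.36, adjusted p = 1). Cas9 Ctnnb1 sgRNA NPCs had 1031 and 1035 in low CHIR and 1225 and 594 in high CHIR (-0.28, interval -0.94 to 0.38, adjusted p = 0.841). QKO NPCs had 625 and 681 in low CHIR and 498, 574 and 464 in high CHIR, and these do not overlap (-0.35, interval -0.92 to 0.21, adjusted p = 0.595). Intervals that include 0 do not show that the response was gone. The difference between the knockout and control responses was 1.87 for Cre removal (standard error 0.43, adjusted p = 0.067 by limma, 0.0654 by edgeR and 0.00285 by DESeq2). It was 0.58 for Cas9 removal (standard error 0.43, adjusted p = 0.863) and 1.42 for QKO (standard error 0.34, adjusted p = 0.219 by limma and 0.0107 by DESeq2). Without QKO control low CHIR replicate 3, which held the lowest Hes1 of its group, the QKO difference was 1.72 (adjusted p = 0.0168).

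Within high CHIR, Hes1 rose by 1.75 on the log2 scale with Cre removal (standard error 0.31, adjusted p = 0.00246), the 1 member called where 8.65% of genes were. With the Ctnnb1 sgRNA the groups overlapped and the log2 fold change was 0.50 (95% interval -0.16 to 1.16, adjusted p = 0.409). No member was called in that comparison by edgeR or by limma fitted over all libraries without a replicate block. At an unadjusted p under 0.05 there was 1, and DESeq2 called 1, with 5.09% of genes called by limma. QKO raised Hes1 by 1.18 (standard error 0.23, adjusted p = 0.0198), with every QKO library above every control and 2.54% of genes called. It was called in all 7 alternatives that left out no library of these groups, with an adjusted p of 0.00403 with the replicate block, 0.00893 with only the libraries compared, 0.0224 by edgeR and 0.000152 by DESeq2. With 1 library left out it was called in 2 of 6 omissions. The adjusted p was 0.0642 without QKO control high CHIR replicate 1, 0.0503 without control replicate 2, 0.0708 without QKO replicate 1 and 0.106 without QKO replicate 2, with log2 fold changes of 1.07 to 1.27 over all 6 omissions. In low CHIR the log2 fold change of Hes1 was -0.12 with Cre, -0.09 with the Ctnnb1 sgRNA and -0.24 in QKO, and none was called (adjusted p = 0.935, 1 and 0.909).

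**Figure D1:**
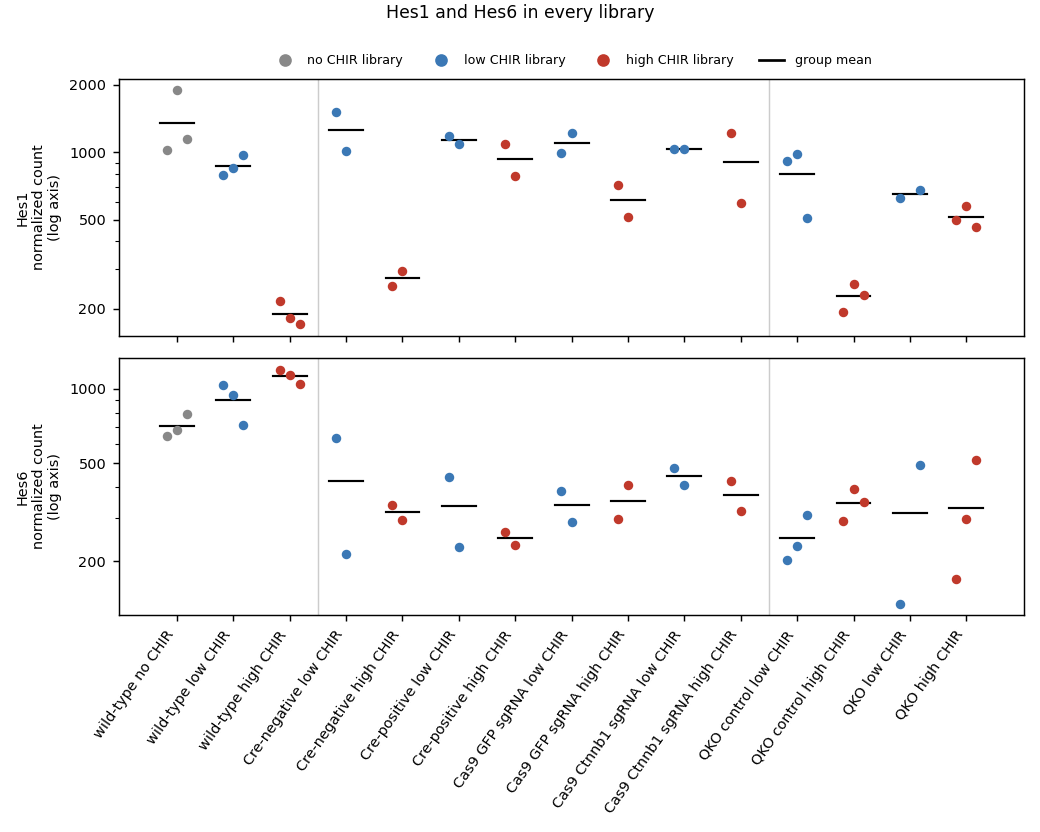
Normalized counts of Hes1 (top) and Hes6 (bottom) on log axes, with 1 point per library, colored by CHIR dose, and a line at each group mean. Grey verticals part the 3 tables, which were normalized separately. Hes1 lies at 170 to 294 in the high CHIR libraries of wild-type, Cre-negative and QKO control NPCs, at 512 and 713 in those with the GFP sgRNA, and at 464 to 1225 in those of the 3 knockouts, a range that takes in the GFP sgRNA values.

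Hes6, the family member that opposes Hes1, ran the other way in wild-type cells. It lies at chr1:91411483-91414038 on the minus strand (ENSMUSG00000067071). It had 645, 681 and 790 normalized counts without CHIR, 1039, 949 and 713 in low CHIR and 1197, 1139 and 1050 in high CHIR. Libraries without CHIR all lay below those in high CHIR, and between them Hes6 rose by 0.68 on the log2 scale (standard error 0.17, adjusted p = 0.014). From low to high CHIR the difference was 0.34 (adjusted p = 0.235), and the groups did not overlap. In transfected NPCs Hes6 had 135 to 632 normalized counts and was called in none of the 15 comparisons, by limma, edgeR or DESeq2. Its replicates were far apart in some groups, with 632 and 214 in Cre-negative low CHIR, 135 and 491 in QKO low CHIR and 169 to 516 in QKO high CHIR, and closer in others, such as 340 and 294 in Cre-negative high CHIR. The 95% interval of its CHIR response in Cre-negative cells, -1.12 to 0.68, includes both 0 and the low-to-high difference of wild-type cells.

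Hey1 and Heyl, which encode hairy-related repressors, were raised by high CHIR in all 6 transfected settings, the 3 controls and the 3 knockouts. The counts do not measure how complete removal was, since edited transcripts can persist. Ctnnb1 was 1270 to 1630 with its sgRNA against 2632 to 2701 with the GFP sgRNA in high CHIR, and Tcf7l1 and Tcf7l2 were not called. By immunostaining, the paper reports significantly reduced but not absent β-catenin with both removals. It also reports removal of most, but not all, of Tcf7l1, Tcf7l2 and Lef1 and of a smaller part of Tcf7, each with its own sgRNA. Hey1 (ENSMUSG00000040289) lies at chr3:8663359-8667256 on the minus strand. Cre-negative NPCs had 468 and 259 normalized counts of Hey1 in low CHIR and 2123 and 2121 in high CHIR, and Cre-positive NPCs 205 and 130 against 1802 and 1147. The log2 fold change was 2.60 in Cre-negative (standard error 0.30, adjusted p = 9.33e-05) and 3.13 in Cre-positive cells (adjusted p = 0.00037). Cas9 GFP sgRNA NPCs had 553 and 391 in low CHIR against 2026 and 2098 in high CHIR, and Ctnnb1 sgRNA NPCs 487 and 385 against 3117 and 3134. Here Hey1 rose by 2.15 (adjusted p = 0.000545) and by 2.85 (adjusted p = 0.000454). QKO controls had 223, 190 and 170 against 1065, 532 and 722, and QKO NPCs 200.98 and 170 against 2150, 1739 and 1843. The rise was 1.94 in controls (adjusted p = 0.000146) and 3.36 in QKO cells (adjusted p = 3.79e-05). In each of the 6 settings all high CHIR libraries lay above all low CHIR libraries.

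Heyl (ENSMUSG00000032744, chr4:123233556-123249875, plus strand) was scarce in low CHIR and abundant in high CHIR. Cre-negative NPCs had 30.0 and 36.6 in low CHIR and 678 and 608 in high CHIR, and Cre-positive NPCs 58.0 and 14.2 against 456 and 635. It rose by 4.24 on the log2 scale (standard error 0.73, adjusted p = 0.00221) and by 4.17 (adjusted p = 0.0275). GFP sgRNA NPCs had 73.5 and 13.0 against 879 and 539, and Ctnnb1 sgRNA NPCs 85.0 and 31.2 against 1525 and 944. The rises were 4.42 (adjusted p = 0.00183) and 4.51 (adjusted p = 0.00921). QKO controls had 29.4, 7.90 and 25.1 against 1134, 541 and 941, and QKO NPCs 5.81 and 10.8 against 1574, 1536 and 1484. Heyl rose by 5.44 in controls (standard error 0.43, adjusted p = 9.04e-06) and by 7.42 in QKO cells (standard error 0.48, adjusted p = 1.52e-05). In low CHIR of QKO cells Heyl rests on 5 and 11 reads, so the size of that fold is poorly fixed.

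The calls in cells treated to remove β-catenin were less firm for Heyl than for Hey1. In Cre-positive NPCs, Heyl had an adjusted p of 0.324 without low CHIR replicate 2, 0.135 without high CHIR replicate 1 and 0.298 without high CHIR replicate 2, with log2 fold changes of 3.19 to 5.15 over the 4 omissions. In Ctnnb1 sgRNA NPCs it was 0.165 without low CHIR replicate 2, 0.163 without high CHIR replicate 1 and 0.0618 without high CHIR replicate 2, with 3.80 to 5.22. Hey1 stayed called in all 4 omissions of both settings, at adjusted p of at most 0.0133. When the Cre-positive libraries were fitted alone, neither Hey1 (adjusted p = 0.255) nor Heyl (adjusted p = 0.348) was called at the same fold changes.

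Of the 5 tested members, 3 were called for the CHIR response in Cre-negative NPCs (Hes1, Hey1 and Heyl, with 8.05% of genes called) and the same 3 in QKO controls (14.9%). In Cas9 GFP sgRNA NPCs 2 were called (Hey1 and Heyl, with 7.51% of genes). Hey1 and Heyl were also the 2 members called in Cre-positive NPCs, where 0.292% of genes passed, in Ctnnb1 sgRNA NPCs, where 0.763% did, and in QKO NPCs, where 2.54% did. Comparisons within a table share libraries in the fit, and these counts are not independent of each other. No member's CHIR response was called different between knockout and control by edgeR or by limma without a replicate block. With the block, limma called Hey1 for QKO (1.52, adjusted p = 0.0197) and Hes1 for Cre removal (1.87, adjusted p = 0.0116). In the β-catenin table the replicate numbers may not pair the libraries. For Cre removal 2 members were at an unadjusted p under 0.05 and 1 was called by DESeq2 (0.995% of genes called by limma). For Cas9 removal the counts were 0 and 0 (0.518%), and for QKO 3 and 2 (0.126%). For Heyl the difference was -0.06 by Cre (95% interval -2.28 to 2.15) and 0.10 by Cas9 (-2.12 to 2.31), which leaves room for a large change either way. For Hey1 it was 0.53 by Cre (-0.39 to 1.44) and 0.70 by Cas9 (-0.21 to 1.62).

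**Figure D2:**
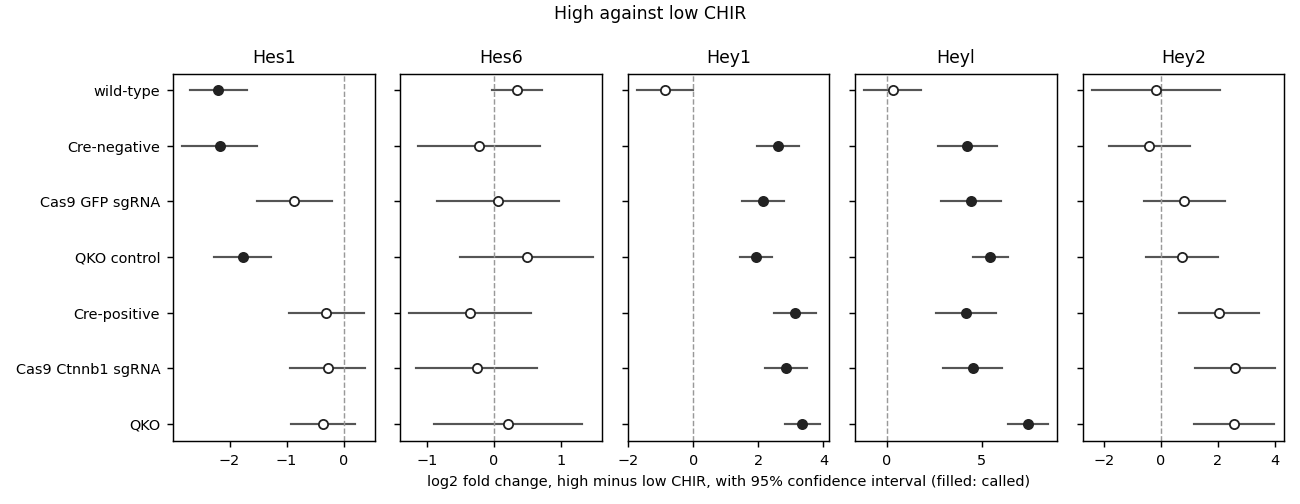
Log2 fold change of each tested member from low to high CHIR, by genotype and treatment, with the 95% confidence interval from limma. Filled circles passed both thresholds. Hey1 and Heyl are filled in all 6 transfected settings and in neither case in wild-type cells, and Hes1 is filled in wild-type, Cre-negative and QKO control NPCs.

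In high CHIR, QKO cells carried more Hey1 than their controls. Hey1 rose by 1.36 on the log2 scale (standard error 0.23, adjusted p = 0.00781), with 1739 to 2150 normalized counts in QKO and 532 to 1065 in controls, and stayed called with each library left out in turn (adjusted p at most 0.0437). In the Tcf/Lef table the replicate numbers were taken to pair the libraries, from correlations in these same data and not from a label. The limma calls, shares and figures come from the fit without this pairing unless the block is named. With replicate as a block, the difference in CHIR response of Hey1 between QKO and control was called (1.52, adjusted p = 0.0197). It was not called without the block (1.42, adjusted p = 0.206). Heyl was 1484 to 1574 in QKO and 541 to 1134 in controls, groups that do not overlap, but its log2 fold change of 0.88 was not called (adjusted p = 0.387). With β-catenin removed in high CHIR, Hey1 differed by -0.56 with Cre (adjusted p = 0.324) and by 0.60 with the Ctnnb1 sgRNA (adjusted p = 0.297). Heyl differed by -0.25 (adjusted p = 0.891) and 0.80 (adjusted p = 0.596). The signs of these differences are opposite, and none was called by limma over all libraries. The Hey1 groups did not overlap with either removal and lay on opposite sides of their controls. With only the libraries compared, limma called Hey1 with the Ctnnb1 sgRNA (0.60, adjusted p = 0.0255). In low CHIR, Hey1 had a log2 fold change of -1.09 with Cre (205 and 130 against 468 and 259, adjusted p = 0.18 by limma and 0.0378 by DESeq2), and the adjusted p was 0.0394 without Cre-negative low CHIR replicate 2. No member was called in low CHIR by edgeR or by limma without a replicate block. With Cre, 1 member was at an unadjusted p under 0.05 and 1 was called by DESeq2, with 0.328% of genes called by limma. With the Ctnnb1 sgRNA these were 0 and 0, with 0.0536% of genes. In QKO they were 1 (Heyl, log2 fold change -1.10, adjusted p = 0.904) and 0, with 0.0063% of genes.

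In wild-type NPCs Hey1 did not follow that course. It had 582, 266 and 172 normalized counts without CHIR, 1074, 911 and 558 in low CHIR, and 474, 406 and 464 in high CHIR. High CHIR libraries all lay below low CHIR libraries, with a log2 fold change of -0.87 (95% interval -1.74 to -0.00, adjusted p = 0.201). Without CHIR, Hey1 differed from low CHIR by -1.45 (adjusted p = 0.062 by limma and 0.0174 by DESeq2), and by -1.93 (adjusted p = 0.012) without no CHIR replicate 1, the deepest library. Without that library Hey1 was also called between high and no CHIR (1.06, adjusted p = 0.0321, against 0.58 and 0.315 with it). Heyl had 70.4, 32.2 and 48.0 without CHIR, 114, 154 and 86.2 in low CHIR and 249, 304 and 38.3 in high CHIR. The low value is replicate 3, which also held 3710 normalized counts of the ligand Jag1 against 11450 and 13730 in its group. Between high and no CHIR, Heyl had a log2 fold change of 1.56 (adjusted p = 0.117 by limma, 0.0489 by edgeR and 0.00635 by DESeq2), and without replicate 3 it was 2.50 (adjusted p = 0.00114). Between high and low CHIR it was 0.31 (adjusted p = 0.819), and 1.25 (adjusted p = 0.0587) without replicate 3.

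Hey2, the third Hey gene (ENSMUSG00000019789, chr10:30832359-30842801, minus strand), was scarce, with 2.79 to 121 normalized counts. It was higher in every knockout library in high CHIR than in its controls, in each of the 3 knockouts. With Cre it had 42.4 and 89.9 against 23.0 and 12.4, a log2 fold change of 1.80 (95% interval 0.39 to 3.22, adjusted p = 0.119 by limma and 0.0485 by DESeq2). With the Ctnnb1 sgRNA it had 121 and 87.1 against 27.7 and 22.02 (2.01, interval 0.60 to 3.42, adjusted p = 0.0994 by limma and 0.0224 by DESeq2). This difference was called by limma with the replicate block (adjusted p = 0.0486) and with only the libraries compared (adjusted p = 0.0174). In QKO it had 66.9, 57.1 and 31.8 against 20.6, 9.10 and 10.6 (1.89, interval 0.64 to 3.15, adjusted p = 0.128 by limma and 0.027 by DESeq2). With the replicate block the QKO difference was called (1.89, adjusted p = 0.0202). The CHIR response of Hey2 within QKO cells was 2.59 (adjusted p = 0.0582) and was called with the block (2.80, adjusted p = 0.00667). In Ctnnb1 sgRNA NPCs, Hey2 had 10.97 and 23.0 in low CHIR and the 121 and 87.1 given above in high CHIR. This response of 2.61 was called by DESeq2 (adjusted p = 0.00801) but not by limma over all libraries without a block (adjusted p = 0.125). By limma it was called with the block (adjusted p = 0.0394) and with only the libraries compared (adjusted p = 0.0329). The response of Hey2 was -0.40 in Cre-negative (adjusted p = 0.773), 2.05 in Cre-positive (adjusted p = 0.72), 0.83 in GFP sgRNA (adjusted p = 0.505) and 0.74 in QKO control NPCs (adjusted p = 0.446). In wild-type cells Hey2 had 11.2, 2.79 and 77.6 in high CHIR, so that replicate 3 alone was high, and no dose comparison was called.

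**Figure D3:**
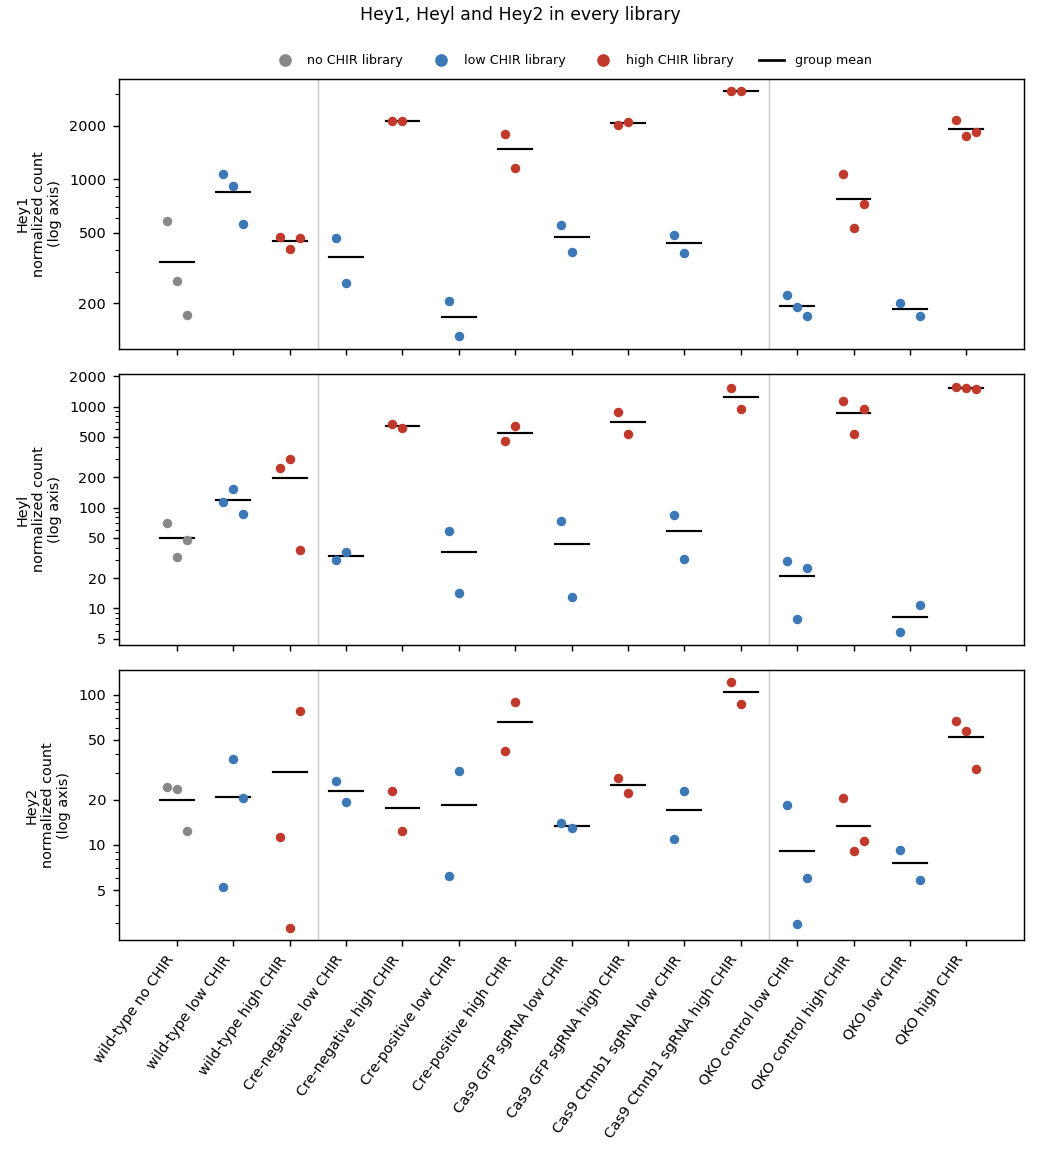
Normalized counts of Hey1, Heyl and Hey2 on log axes, with 1 point per library, colored by CHIR dose, and a line at each group mean. In the transfected groups the high CHIR libraries of Hey1 and Heyl lie above the low CHIR libraries, and wild-type high CHIR replicate 3 is the low point of Heyl (38.3) and the high point of Hey2 (77.6).

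**Figure D4:**
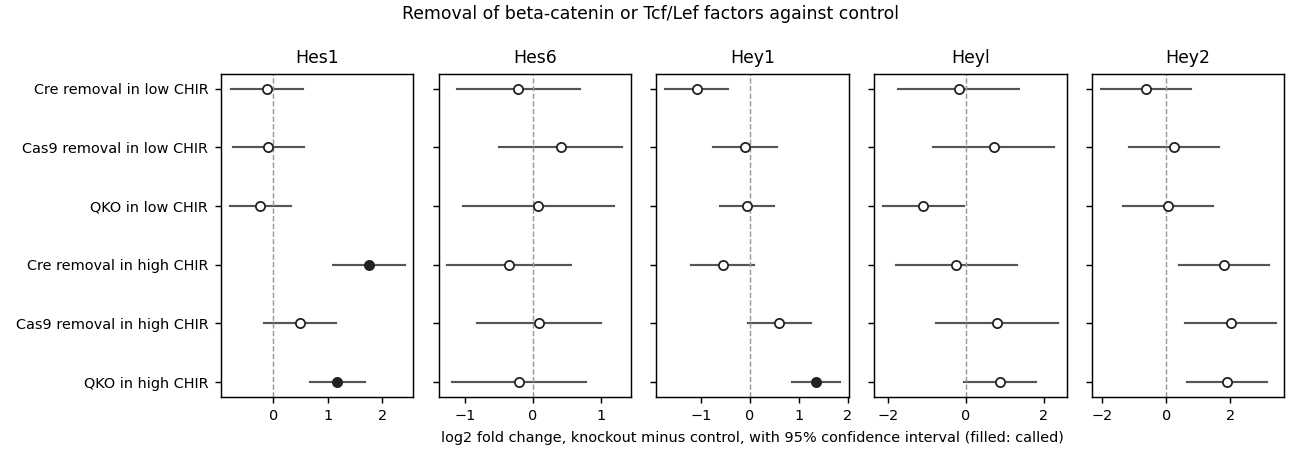
Log2 fold change of each tested member, knockout minus control, at low and at high CHIR, with the 95% confidence interval from limma. Filled circles passed both thresholds, which are Hes1 with Cre removal (1.75) and with QKO (1.18) and Hey1 with QKO (1.36), each in high CHIR.

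Hes5 and Nrarp, both strong Notch responders in other tissues, were close to absent and were not tested. Hes5 (ENSMUSG00000048001, chr4:154960923-154962371, plus strand) had 0 to 16 reads per wild-type library. It had 2.80, 0 and 1.12 normalized counts without CHIR, 17.1, 8.55 and 10.8 in low CHIR, and 17.9, 8.38 and 0 in high CHIR. The low CHIR libraries all lay above those without CHIR, on 9 to 13 reads each. In a fit without the filter this difference was -2.66 (no minus low, adjusted p = 0.168). In the β-catenin table Hes5 had at most 4 reads per library and was at 0 in 9 of 16, and in the Tcf/Lef table at most 7 reads and 0 in 5 of 11. A library at 0 allows up to 3 reads, counting error only, so differences at this level were not detectable. Nrarp (ENSMUSG00000078202, chr2:25180758-25183339, plus strand) had 13 reads in all over the 9 wild-type libraries and 26 over the 16 of the β-catenin table, with at most 7 in 1 library. Both genes overlap an antisense gene, Gm20421 and Gm38287, which is in none of the tables.

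Set on a scale of normalized counts per kilobase of exon, the 5 tested genes traded places with dose. In wild-type NPCs without CHIR, Hes1 had 665 ± 231 (SD, n = 3) per kilobase, above Hes6 at 390.0 ± 41.7 and Hey1 at 104 ± 65.8. In high CHIR, Hes6 was highest at 624 ± 41.0, followed by Hey1 at 137 ± 11.2 and Hes1 at 92.9 ± 11.8. Heyl and Hey2 were lowest, at 38.6 ± 27.4 and 6.65 ± 8.92. In Cre-negative NPCs in high CHIR, Hey1 stood highest at 650 ± 0.463 per kilobase (n = 2), with Hes6 at 175 ± 18.0 below it, and Hes1 at 134 ± 14.0 and Heyl at 126 ± 9.75 within their spread of each other. In high CHIR of QKO cells, Hey1 had 585 ± 65.6 per kilobase (n = 3), Heyl 300 ± 8.86, Hes1 251 ± 27.8 and Hes6 181 ± 96.8, Hes1 and Hes6 lying within their spread.

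Across libraries Hey1 and Heyl tracked each other. Pearson's r of log2(normalized count + 1) was 0.934 over the 16 libraries of the β-catenin table and 0.946 over the 11 of the Tcf/Lef table, against 0.427 over the 9 wild-type libraries. Hes1 and Heyl were inversely related in all 3, at -0.506 in the wild-type, -0.577 in the β-catenin and -0.666 in the Tcf/Lef table. Hes1 and Hes6 stood at -0.827 in the wild-type table but at 0.211 and -0.339 in the others. These describe libraries that share doses and genotypes, and carry no test. Among 11711 other genes with a mean of at least 50 in each table, the pattern of Hes1 was matched most closely by Dse, Ubl3 and Zfp703, with a smallest r over the 3 tables of 0.893, 0.883 and 0.882. For Heyl they were Oxtr, Lama4 and Plet1 (0.883, 0.87 and 0.844), and for Hey1 Kremen1, Gas7 and Khdrbs3 (0.816, 0.812 and 0.804). Hes6 (Lypla2, Cacfd1 and Med28, 0.766 to 0.749) and Hey2 (Ptges, Rai14 and Hsd17b14, 0.647 to 0.612) had less close matches.

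Of 46 other Notch pathway genes (ligands, receptors, Fringe enzymes, cleavage and nuclear factors, brakes, related Hes genes and Groucho partners), 38 were tested in each table. From low to high CHIR in wild-type cells 3 rose and 4 fell, where 10.4% of all genes were called, with a median log2 fold change of 0.03 over the list and 0.01 over all genes. Jag1, a ligand, rose by 2.46 (adjusted p = 0.0109) and Bhlhe41, a related repressor, by 2.28 (adjusted p = 0.00277). Lfng, a Fringe enzyme that modifies Notch receptors, fell by 1.59 (adjusted p = 0.0106) and Notch2, a receptor, by 1.52 (adjusted p = 0.00181). Between high and no CHIR 7 rose and 3 fell (23.4% of all genes called), led by Jag1 (3.77, adjusted p = 0.000554), Bhlhe41 (1.98), Bhlhe40 (1.81) and Dtx1 (1.79). Between no and low CHIR 1 rose and 2 fell (4.97%), which were Dtx3 (0.79, adjusted p = 0.0148), the ligand Dll1 (-1.53, adjusted p = 0.0422) and Rbpj (-0.72, adjusted p = 0.0191).

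Jag1 had the largest called CHIR response of the list in each transfected setting. In high CHIR it was lower where β-catenin was removed, where limma over all libraries did not call Hey1 or Heyl. Of the 38 genes, 2 rose and 2 fell with CHIR in Cre-negative and in GFP sgRNA cells, where 8.05% and 7.51% of all genes were called, and 3 rose and 3 fell in QKO controls (14.9%). In Cre-positive (0.292%) and in Ctnnb1 sgRNA cells (0.763%) 1 rose, and in QKO cells (2.54%) 2 rose. Dll1, a Delta ligand, rose in QKO controls (3.23, adjusted p = 0.00554) and in QKO cells (3.32, adjusted p = 0.0366), whereas in wild-type cells it fell from low to high CHIR (-1.45, adjusted p = 0.0298). The other large changes in QKO controls were Tle2 (-1.18, adjusted p = 0.00973) and Notch1 (1.09, adjusted p = 0.0207). Bhlhe41 rose in Cre-negative (2.34, adjusted p = 0.000725) and GFP sgRNA cells (1.80, adjusted p = 0.00566). Maml2, a Mastermind coactivator, fell in both (-0.97, adjusted p = 0.049, and -1.42, adjusted p = 0.00637), as did Lfng in Cre-negative (-2.25, adjusted p = 0.0348) and Tle2 in GFP sgRNA cells (-1.49, adjusted p = 0.0226). Jag1 rose by 4.61 in Cre-negative cells (adjusted p = 7.37e-07), by 4.44 with GFP sgRNA (adjusted p = 8.5e-07) and by 6.03 in QKO controls (adjusted p = 2.8e-06). After removal it still rose, by 2.29 in Cre-positive (adjusted p = 0.00256), 2.94 in Ctnnb1 sgRNA (adjusted p = 0.00026) and 4.83 in QKO cells (adjusted p = 0.000197). In high CHIR it fell by 2.62 with Cre (adjusted p = 5.97e-05) and by 2.22 with the Ctnnb1 sgRNA (adjusted p = 0.000435). Its normalized counts there were 8707 to 14830 in the controls and 1481 to 4151 in the cells with β-catenin removed. The lower CHIR response of Jag1 with Cre was itself called (-2.32, adjusted p = 0.0114). It was not called by Cas9 removal (-1.505, adjusted p = 0.217) or by QKO (-1.203). Nor was Jag1 called with QKO in high CHIR (-1.218, adjusted p = 0.164). With Cre and with the Ctnnb1 sgRNA in high CHIR, 2 of 38 genes (1 in each direction, with 8.65% of all genes called) and 4 of 38 (1 rose, 3 fell, with 5.09%) were called. The others were Maml2, which rose in both (1.68, adjusted p = 0.00173, and 1.16, adjusted p = 0.031), and with the sgRNA Bhlhe41 (-1.32, adjusted p = 0.0455) and Adam10 (-0.71, adjusted p = 0.0334). With QKO in high CHIR 2 of 38 were called (2.54% of all genes), Psen2 higher (1.10, adjusted p = 0.0151) and Tle4 lower (-0.93, adjusted p = 0.0388). In low CHIR, Jag1 differed by -0.30 with Cre (adjusted p = 0.761), -0.71 with the Ctnnb1 sgRNA (adjusted p = 1) and -0.01 in QKO (adjusted p = 0.996).

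Markers of other cell types moved with some of these values, and bulk libraries cannot tell fewer cells of a type from less RNA per cell. Of 8 endothelial markers, whose cells are known for Hey1 and Hey2, the summed level in high CHIR was 266 to 319 normalized counts in Cre-negative and 1190 to 1667 in Cre-positive libraries. It was 434 to 522 with the GFP sgRNA and 1591 to 1992 with the Ctnnb1 sgRNA, and 342 to 455 and 537 to 822 in QKO controls and QKO. In low CHIR the endothelial sum was 864 to 1719 in Cre-negative and 2265 to 2307 in Cre-positive libraries. It was 925 to 1033 and 2199 to 2317 there with the GFP and Ctnnb1 sgRNAs, and 1165 to 1631 and 1718 to 2669 in QKO controls and QKO. In all 6 transfected settings this sum lay lower in high than in low CHIR, whereas Hey1 and Heyl lay higher. In high CHIR Plvap was called higher in each of the 3 knockouts (log2 fold changes 2.51, 2.48 and 2.14) and Emcn with Cre and the Ctnnb1 sgRNA (4.09 and 3.27). Emcn was also called higher with Cre and the Ctnnb1 sgRNA in low CHIR (2.58 and 2.54). In the high CHIR libraries of the β-catenin and Tcf/Lef tables Cdh5 was at 0 to 11.3, Tie1 at 0 to 3.03, Kdr at 0 to 21.9 and Pecam1 at 0.921 to 32.4 normalized counts. Egfl7 was at 119 to 492 there. Tek, an angiopoietin receptor, was not near 0 throughout. From low to high CHIR it rose by 6.95 on the log2 scale in wild-type cells (13.1 to 769 in high CHIR, adjusted p = 0.00895), by 5.95 in QKO controls (72.5 to 172, adjusted p = 8.7e-05) and by 3.53 in QKO cells (13.0 to 54.0, adjusted p = 0.0261). In the high CHIR libraries of the β-catenin table it was at 0 to 21.7. The summed level of 8 mural cell markers, a cell type known for Heyl, was 2030 to 2569 and 4137 to 6613 for Cre-negative and Cre-positive, 2142 to 5156 and 6198 to 7481 for the sgRNAs, and 431 to 2208 and 1263 to 4444 for QKO, in high CHIR. In low CHIR, where Hey1 and Heyl were lower, this sum was 2611 to 3480 in Cre-negative and 3413 to 4633 in Cre-positive cells, 2370 to 3986 and 2677 to 4432 with the GFP and Ctnnb1 sgRNAs, and 939 to 2952 and 1155 to 3835 in QKO controls and QKO. The ranges at the 2 doses overlapped in 4 of the 6 settings, lay lower in high CHIR in Cre-negative cells and lay higher with the Ctnnb1 sgRNA, where Cspg4 rose (2.30, adjusted p = 0.00921). Myh11, a smooth muscle gene, was at 0 to 7.29 in the same high CHIR libraries. The part of these cells in the values of Hey2, Hey1 and Heyl was not tested. Of the 8 nephron progenitor markers in high CHIR, 4 were higher (Meox1 5.90, Cited1 5.49, Osr1 4.44 and Six2) and 2 lower (Pax2 -2.55 and Sall1 -1.51) with Cre. With the Ctnnb1 sgRNA 3 were higher (Cited1 5.12, Osr1 3.77 and Meox1 2.65) and 2 lower (Pax2 -1.87 and Sall1 -0.97), and in QKO 4 were higher (Osr1 2.18, Meox1 1.74, Cited1 1.73 and Six2). Their summed level was 12050 to 12870 in Cre-positive against 9714 to 11760 in Cre-negative libraries, 11900 to 12970 against 10260 to 12440 for the sgRNAs, and 9917 to 11830 in QKO against 10650 to 11840 in controls. Six2, a nephron progenitor regulator, was 1556 to 1558 in Cre-positive and 407 to 977 in Cre-negative high CHIR (log2 fold change 1.30, adjusted p = 0.0294). It was 607 to 685 in QKO and 136 to 271 in QKO controls (1.64, adjusted p = 0.0226), and 1473 to 1833 and 1097 to 1336 for the Ctnnb1 and GFP sgRNAs, where it was not called. The part of these markers in the values of Hes1 was not tested.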

How the data were processed

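Values were the normalized counts of 36 libraries, a signal that the authors deposited in 3 tables. Per the study's methods, SMARTer cDNA reads were aligned by STAR against a joint mouse (GRCm38) plus human (GRCh38) reference, and uniquely aligned, unambiguous reads were counted per gene with featureCounts, which leaves out reads shared between near-identical sequences. Every value was a whole multiple of what 1 read is worth (100% within 0.1 read), which gave back the reads and the depth, and in 3 libraries that step was close to 1. The authors' 8 comparison files (log2 fold changes, p-values and 50 library columns) were not used. No source used here says that counting kept strand. Symbols and places come from GENCODE vM21.

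Tests used limma 3.58.1 in R 4.3.3 over all libraries of a table, with a trend in the variance and a pseudocount of 1, which understates folds of low genes, and were tested on simulated data. edgeR 4.0.16 and DESeq2 1.42.0 ran on the recovered reads as alternatives. Sources do not tie replicates to separate animals, so p-values measure the spread between libraries. The correlation of same-numbered libraries' deviations was 0.249 to 0.369 (QKO against control, high CHIR) and 0.341 to 0.63 (controls, low against high). From this the replicate numbers of the Tcf/Lef table were taken to pair libraries, which no label states. The main limma fits still had no replicate term, and the block is given as an alternative. In the wild-type table it fell to -0.0156, and in the β-catenin table it was 0.142 to 0.518, where groups of 2 cannot show pairing. Members are reported for each comparison, pathway genes by at most the 4 largest called changes, and like genes by the smallest of 3 correlations. The members and lists were chosen with earlier results of these data known. Intervals and floors cover counting or library error only.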

Additional observations from a re-analysis of the deposited data

Results flagged for a closer look

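Hey1 differed between low and high CHIR with opposite signs in wild-type and in transfected control NPCs. Its high CHIR libraries all lay below the low CHIR libraries in wild-type NPCs (log2 fold change -0.87, not called, adjusted p = 0.201), and all above them in Cre-negative (2.60), Cas9 GFP sgRNA (2.15) and QKO control NPCs (1.94). The difference itself was not tested. The paper places Hey1 in its Cre-dependent low CHIR gene set and describes it as raised further in high CHIR. The wild-type libraries did not show that rise, and the transfected control libraries did. The transfected cells also differ from the wild-type cells in genotype, transfection, sorting and the knockout period in low CHIR, and these cannot be told apart.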

How the results depend on the processing

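Of 90 member results, 20 were called, and in 238 refits of these 226 were still called, 12 were not and 0 changed sign. Of the 70 not called, 28 changed sign in at least 1 refit. Leaving a library out of a group of 2 leaves a lone library that is assumed to vary like the others. With 1 library left out, the number of members called ran from 0 to 1 for wild-type no against low CHIR, for Cre removal in low CHIR and for the difference by QKO. It ran from 1 to 2 for QKO in high CHIR and for the CHIR response in Cre-positive and Ctnnb1 sgRNA NPCs. For wild-type high against no CHIR, Heyl was added without high CHIR replicate 3 and Hey1 without no CHIR replicate 1.

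With the replicate block 1 member was called for Cas9 removal in high CHIR, wild-type no against low CHIR, Cre removal in low CHIR and the differences by Cre removal and by QKO. DESeq2 called 1 for these except the difference by QKO, where it called 2, and it called 2 for Cre removal in high CHIR. Both DESeq2 and the block called 3 for QKO in high CHIR and for the CHIR responses of Ctnnb1 sgRNA and QKO NPCs. For wild-type high against no CHIR, edgeR and DESeq2 called 3. Fitting only the libraries compared gave 2 for Cas9 removal in high CHIR (Hey1 and Hey2) and 0 for the CHIR response in Cre-positive NPCs. A fold threshold of 1 gave 1 for wild-type high against no CHIR. Over all genes the block called 513 against 55 for Cre removal in low CHIR, 2639 against 1452 in high CHIR, 2133 against 854 for Cas9 removal in high CHIR and 1181 against 404 for QKO in high CHIR. The cause was not tested. The block also called the CHIR response of Hes1 in Cas9 GFP sgRNA NPCs (-0.86, adjusted p = 0.037). Calls in the β-catenin table with the block rest on numbers that may not pair the libraries. Low reads limit Hey2, Hes5 and Nrarp.

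The log2 fold change of Hey2 was 0.55 (edgeR) and 0.55 (DESeq2) for wild-type high against low CHIR, -0.060 and -0.069 for no against low, 0.61 and 0.62 for high against no, and -0.23 and -0.23 for QKO in low CHIR, where the block gave -0.17. That of Heyl for Cre removal in low CHIR was 0.17 and 0.12. Each of these has the opposite sign to the value by limma and was called by none.

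With 1 library left out, these log2 fold changes took both signs. Hes1 ranged over -0.41 to 0.17 for Cre removal in low CHIR, -0.24 to 0.059 for Cas9 removal in low CHIR and -0.025 to 1.02 for Cas9 removal in high CHIR. Hes1 also ranged over -0.80 to 0.24 for the response of Cas9 Ctnnb1 sgRNA NPCs. Hes6 ranged over -0.99 to 0.56 for Cre removal in low CHIR, -0.14 to 0.31 for Cas9 removal in high CHIR and -0.998 to 0.56 for the response of Cre-negative NPCs. Hes6 also ranged over -0.83 to 0.12 for the response of Cre-positive NPCs, -0.17 to 0.29 for the response of Cas9 GFP sgRNA NPCs and -0.91 to 0.65 for the difference by Cre removal. Hes6 also ranged over -0.85 to 1.00 for QKO in low CHIR, -0.60 to 0.20 for QKO in high CHIR and -0.72 to 1.13 for the response of QKO NPCs. Hes6 also ranged over -1.21 to 0.65 for the difference by QKO. Hey1 ranged over -0.35 to 0.15 for Cas9 removal in low CHIR and -0.18 to 0.059 for QKO in low CHIR. Heyl ranged over -0.23 to 1.25 for wild-type high against low CHIR, -1.17 to 0.79 for Cre removal in low CHIR and -0.50 to 1.91 for Cas9 removal in low CHIR. Heyl also ranged over -1.04 to 0.92 for the difference by Cre removal and -1.11 to 1.30 for the difference by Cas9 removal. Hey2 ranged over -1.34 to 0.85 for wild-type high against low CHIR, -0.50 to 0.80 for wild-type no against low CHIR and -1.57 to 0.62 for wild-type high against no CHIR. Hey2 also ranged over -1.71 to 0.43 for Cre removal in low CHIR, -0.27 to 0.73 for Cas9 removal in low CHIR and -0.81 to 0.022 for the response of Cre-negative NPCs. Hey2 also ranged over -0.47 to 0.67 for QKO in low CHIR.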
